A study of Mus musculus with 9 samples.

Results

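The Eph receptors, ephrins, semaphorins, plexins and neuropilins are the ligands and receptors by which growing axons and migrating cells read repulsive and attractive cues. Members were taken by gene name from the count table: every listed Eph receptor, ephrin, semaphorin of classes 3 to 7, plexin and both neuropilins, 53 of the 33495 genes listed. They comprise 9 EphA and 5 EphB receptors, 5 ephrin-A and 3 ephrin-B ligands, 7 secreted class 3 semaphorins, 13 membrane semaphorins, 9 plexins and 2 neuropilins.

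Ephrins are membrane-bound ligands, held by a lipid anchor in the A class and by a transmembrane segment in the B class. They bind Eph receptor tyrosine kinases on a neighbouring cell, and contact often ends in repulsion and sharp tissue boundaries. Semaphorins signal through plexins, which act on small GTPases and the cytoskeleton. Most secreted class 3 semaphorins bind a neuropilin that is joined to an A-type plexin, whereas membrane semaphorins of classes 4 to 6 bind plexins directly. These families guide axons, neural crest cells and blood vessels in the embryo.

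The series profiled RF8 cells, a mouse embryonic stem cell line, after transfection with EGFP (a fluorescent protein that serves as the control), wild-type Nanog (WT) or the Nanog mutant L122A (an HD mutant, going by the title). Nanog is a transcription factor that holds embryonic stem cells in the self-renewing state. Each transfectant was cultured with leukaemia inhibitory factor (LIF, 1000 units per ml, with puromycin in the routine medium), without LIF, or without LIF and with retinoic acid (RA, 5 µM), which gives 9 libraries with 1 library for each combination. The labels do not state the vector, the promoter that drove each construct, whether a transfectant was a clone or a pool, or the time spent in each culture.

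Depth was 24166395 to 28714988 counts per library. Levels of a gene are given as CPM (counts scaled to a common depth) on TMM-scaled library sizes, always in the order LIF, no LIF and RA, and levels of different genes are compared only as FPKM (fragments per kilobase, scaled to depth), which adjusts for length. Of the 53 members, 39 reached 1 CPM in at least 3 libraries and were tested. Of these 39, 30 would also have passed without the RA libraries and 9 passed only with them. The 9 were Efna3, Efnb1, Ephb6, Sema3a, Sema3d, Sema4c, Sema6c, Sema6d and Nrp1. Those 9 had to be high in RA to enter, so counts over the tested members describe them and support nothing. With 1 library per combination there are no replicates, so each p-value from edgeR's quasi-likelihood test asks whether a difference recurs across the 3 transfectants or the 3 cultures, and the log2 fold changes carry an SE on that basis.

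The 14 members that were not tested were Epha3, Epha5, Epha6, Epha8, Epha10, Ephb1, Sema3f, Sema3g, Sema6b, Sema7a, Plxna4, Plxnb3, Plxnc1 and Plxnd1. Their highest CPM in any library ranged from 0.375 (Epha6) to 7.74 (Epha3). Epha3, a receptor of A-type ephrins, stood at 0.1, 0.0381 and 7.74 CPM in the EGFP libraries, at 0.0492, 0 and 2.66 CPM in WT, and at 0.316, 0 and 0.280 CPM in L122A. It was above 1 CPM only in the EGFP and WT libraries with RA. The 0 values rest on depth, since 3 counts are worth 0.122 CPM in the WT library without LIF and 0.152 CPM in the L122A library without LIF, and such limits cover counting error only. Plxnd1, the plexin that Sema3e is known to bind without a neuropilin, did not exceed 1.99 CPM in any library.

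Per length, the ephrin-B ligands had the highest sum of the 8 families in the EGFP and WT libraries with RA, and Efnb2 supplied most of it. In each other library another family summed higher. For example, EphA receptors were at 15.51 FPKM in EGFP with LIF and 28.16 FPKM in L122A with RA, and class 3 semaphorins at 26.47 FPKM in EGFP without LIF. Summed ephrin-B FPKM was 11.87, 25.36 and 67.98 in the EGFP libraries, 1.21, 6.47 and 63.08 in WT, and 1.66, 4.45 and 23.94 in L122A. The neuropilins summed to 5.15, 2.80 and 44.47 FPKM in EGFP, to 0.62, 0.51 and 16.29 in WT, and to 0.41, 0.26 and 12.32 in L122A. Both families were highest with RA in each transfectant. Membrane semaphorins summed to between 5.62 FPKM (L122A without LIF) and 17.01 FPKM (L122A with RA), a narrower range. By mean FPKM over the 9 libraries the leading members were Efnb2 (21.0) and Efnb1 (0.962) among B-type ephrins, Efna4 (3.89) and Efna5 (3.50) among A-type ephrins, and Epha2 (8.74) and Epha4 (2.49) among EphA receptors. Ephb4 (2.97) and Ephb3 (0.927) led the EphB receptors, Sema3c (6.87) and Sema3e (3.85) the class 3 semaphorins, and Sema4d (2.34) and Sema4b (2.06) the membrane semaphorins. Plxna1 (3.51) and Plxnb2 (2.83) led the plexins, and the neuropilins had means of 7.0 FPKM for Nrp1 and 2.21 FPKM for Nrp2.

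**Figure D1:**
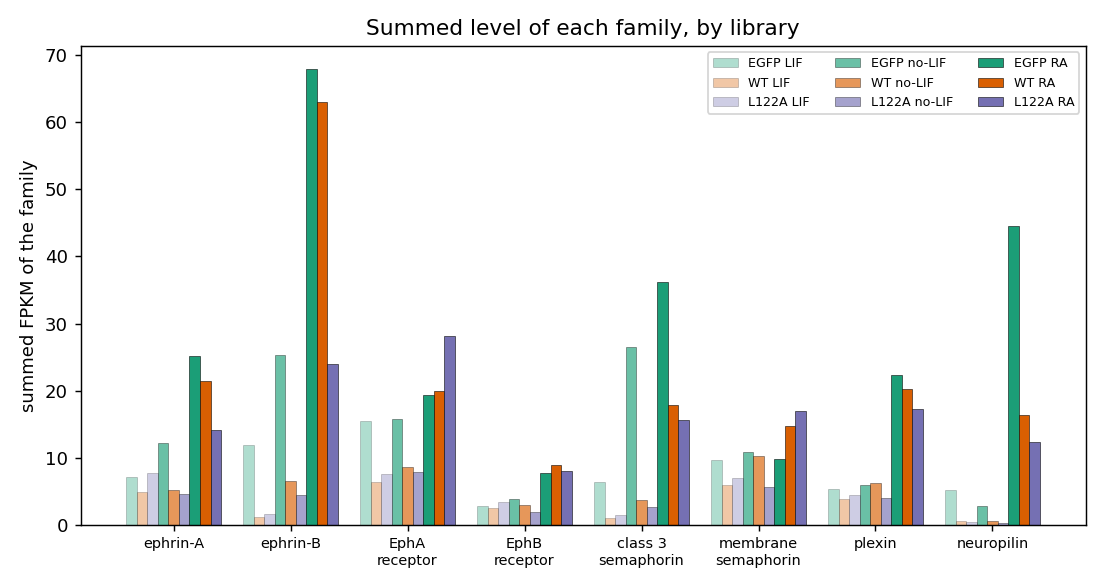
Summed FPKM of each family (vertical axis) in each of the 9 libraries, coloured by transfectant and shaded by culture. Each bar is 1 library with no error; the ephrin-B bars reach 67.98 FPKM in EGFP with RA against 1.21 in WT with LIF.

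Culture with RA was first compared with culture with LIF. Nrp1, the 4 EphB receptors tested, 4 plexins, 9 of 16 semaphorins tested, 3 ephrins and Epha7 rose with RA, and Sema5b fell. Of the 39 members tested, 23 were called at an adjusted p below 0.05, 22 higher and 1 lower, where 48.2% of all 13996 genes were called, 24.5% higher and 23.8% lower. Of the 22, 14 would have passed the filter without the RA libraries, and the others entered only through them. The median log2 fold change of the members was 1.56, against 0.01 over all genes tested. By family, 4 of 4 EphB receptors tested rose, as did 4 of 5 class 3 semaphorins, 4 of 5 plexins, 2 of 3 ephrin-B ligands, 5 of 11 membrane semaphorins, 1 of 2 neuropilins, 1 of 4 EphA receptors and 1 of 5 ephrin-A ligands. All 3 RA libraries lay above all 6 others for 19 members, an order that 22.5% of all genes tested showed, and below all 6 others for 1 member, Plxna3 (21.8% of all genes). Among the 19, Efna3, Efnb1, Ephb6, Sema3a, Sema4c, Sema6c, Sema6d and Nrp1 passed the filter only with the RA libraries. Counts divided by total counts alone, without TMM factors, moved the median of all genes to 0.39 and gave 27 members higher and 1 lower. The shares of all genes moved too, to 32.2% higher and 13.9% lower.

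Promoter windows, the 250 bases before the annotated start, are shown for the members with large changes in RA: 4 that rose (Efnb2, Sema3c, Plxna2 and Nrp1) and Sema5b, which fell. They come from RefSeq's table for GRCm38.p6, a newer build than the mm9 of the counts. Efnb2 is on the minus strand at chr8:8661243-8661492, Sema3c on the plus strand at chr5:17574566-17574815, Plxna2 on the plus strand at chr1:194619579-194619828, Nrp1 on the plus strand at chr8:128358823-128359072 and Sema5b on the plus strand at chr16:35541112-35541361. Each is written 5′ to 3′ on the gene's strand, and capitals mark GGGCGG (the core of the GC box that Sp1-type factors bind) or AGGTCA (a half-site of nuclear receptors, among them the RA receptors) on either strand, where they read CCGCCC or TGACCT.
Efnb2: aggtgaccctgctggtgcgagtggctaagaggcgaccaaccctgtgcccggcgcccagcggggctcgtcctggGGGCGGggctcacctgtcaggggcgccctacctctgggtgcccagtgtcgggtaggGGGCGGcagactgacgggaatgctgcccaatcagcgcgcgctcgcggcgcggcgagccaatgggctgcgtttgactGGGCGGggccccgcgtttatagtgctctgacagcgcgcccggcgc
Sema3c: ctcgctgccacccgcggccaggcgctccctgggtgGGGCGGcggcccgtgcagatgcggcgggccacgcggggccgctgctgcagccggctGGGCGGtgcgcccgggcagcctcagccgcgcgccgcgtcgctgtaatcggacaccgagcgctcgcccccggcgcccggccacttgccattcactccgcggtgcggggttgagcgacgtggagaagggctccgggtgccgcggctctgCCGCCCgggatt
Plxna2: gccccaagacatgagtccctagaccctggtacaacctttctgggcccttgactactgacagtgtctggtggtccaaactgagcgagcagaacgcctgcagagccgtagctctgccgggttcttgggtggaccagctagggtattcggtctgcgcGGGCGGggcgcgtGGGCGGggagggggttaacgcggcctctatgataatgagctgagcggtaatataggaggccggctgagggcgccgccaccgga
Nrp1: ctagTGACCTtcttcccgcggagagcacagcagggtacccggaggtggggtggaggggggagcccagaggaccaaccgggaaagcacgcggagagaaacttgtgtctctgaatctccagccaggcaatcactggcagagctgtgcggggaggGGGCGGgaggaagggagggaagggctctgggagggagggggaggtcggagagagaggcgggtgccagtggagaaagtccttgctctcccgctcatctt
Sema5b: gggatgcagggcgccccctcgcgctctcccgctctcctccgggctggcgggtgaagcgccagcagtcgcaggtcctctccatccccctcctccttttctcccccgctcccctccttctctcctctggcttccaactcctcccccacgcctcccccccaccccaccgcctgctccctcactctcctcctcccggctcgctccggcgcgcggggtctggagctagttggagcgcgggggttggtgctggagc
The window of Efnb2 holds 3 GGGCGG matches, that of Sema3c 3, that of Plxna2 2 and that of Nrp1 1, and that of Sema5b none. The single AGGTCA match among the 5 windows is the TGACCT near the 5′ end of the Nrp1 window. The table held 61 windows for 47 of the 53 members, since a gene can have several starts. GGGCGG on either strand occurred in 46 of the 61 windows (75.4%), against 32.7% of all 32851 windows. AGGTCA occurred in 8 of the 61 (13.1%), against 14% of all windows. Direct repeats of AGGTCA or AGTTCA on either strand at a spacing of 1, 2 or 5 bases, the arrangement that RA receptor dimers are known to bind, were in 0 of the 61 windows and in 0.137% of all. These matches are letters in a short window and say nothing of binding.

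Efnb2, the B-type ephrin that marks arterial cells and somite borders and binds EphB4, was at 51.0, 117 and 275 CPM in the EGFP libraries, at 5.02, 27.3 and 232 CPM in WT, and at 5.64, 20.9 and 76.8 CPM in L122A. Each transfectant was lowest with LIF and highest with RA, but the EGFP library without LIF stood above the L122A library with RA, so the RA libraries did not all lie above the rest. From LIF to RA it rose by 3.91 on the log2 scale (SE 0.54, adjusted p = 0.00123, edgeR). Efnb1, its close relative, was at 0.970, 2.06 and 9.86 CPM in EGFP, at 0.0492, 0.653 and 5.32 CPM in WT, and at 0.857, 0.405 and 6.03 CPM in L122A. The 3 RA libraries held the 3 highest values, and the log2 fold change was 3.68 (SE 0.71, adjusted p = 0.0038). Efnb3 was at 1.22 to 4.85 CPM over the 9 libraries and did not pass (log2 fold change 1.27, SE 0.49, adjusted p = 0.059).

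Among the A-type ephrins only Efna5, known from the topographic mapping of retinal axons, passed. Efna5 was at 5.05, 18.6 and 53.5 CPM in EGFP, at 1.03, 2.12 and 20.9 CPM in WT, and at 2.08, 1.47 and 9.76 CPM in L122A. The EGFP library without LIF again exceeded the L122A library with RA, and the log2 fold change from LIF to RA was 3.30 (SE 0.52, adjusted p = 0.00174). Efna1, Efna2, Efna3 and Efna4 ranged from 0.725 to 9.57 CPM, and their log2 fold changes of 0.03 to 1.03 did not pass.

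Epha7, a receptor of A-type ephrins expressed along the neural tube, was the single EphA receptor called. Epha7 was at 4.18, 4.84 and 26.3 CPM in EGFP, at 2.02, 5.59 and 35 CPM in WT, and at 4.69, 9.21 and 12.1 CPM in L122A. All 3 RA libraries were above the other 6, by the smallest margin in L122A, and the log2 fold change was 2.78 (SE 0.52, adjusted p = 0.00352). Epha2, the member of this family with the highest FPKM and a receptor present in early embryos, was at 43.9, 44.2 and 41.3 CPM in EGFP, at 27.5, 28.5 and 31.6 CPM in WT, and at 26.3, 35.1 and 73.3 CPM in L122A. The L122A library with RA stood above the other 8, and the change from LIF to RA did not pass (log2 fold change 0.55, SE 0.30, adjusted p = 0.154).

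The 4 EphB receptors tested all rose, with a median log2 fold change of 1.53. Ephb2, a receptor of B-type ephrins in axon guidance and in the gut, was at 1.84, 0.992 and 8.52 CPM in EGFP, at 2.36, 3.26 and 13.3 CPM in WT, and at 5.10, 4.0 and 11.5 CPM in L122A. Its RA libraries were the 3 highest, and it rose by 1.96 on the log2 scale (SE 0.40, adjusted p = 0.00458). Ephb4, the main receptor of Efnb2 in blood vessels, was at 9.70, 14.8 and 22.4 CPM in EGFP, at 10.1, 8.93 and 18.0 CPM in WT, and at 10.7, 6.07 and 16.2 CPM in L122A. These RA libraries also lay above the other 6, and the log2 fold change was 0.86 (SE 0.28, adjusted p = 0.0351). Ephb3 (1.09) and Ephb6 (2.52), the latter a receptor without kinase activity, were called higher too. The calls of Ephb3 and Ephb4 ended without the EGFP LIF, EGFP RA, WT LIF or WT RA library, that of Ephb3 also without L122A LIF, and that of Ephb4 also without WT no-LIF or L122A RA. The Ephb6 call ended without EGFP LIF, WT LIF or WT no-LIF, and without any 1 of the 3 RA libraries Ephb6 fell under the filter and was not tested.

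Sema3c, a secreted semaphorin of neural crest and cardiac outflow tract migration, had the largest rise of the class 3 ligands. Sema3c was at 8.16, 70.9 and 102 CPM in EGFP, at 1.53, 8.77 and 49.8 CPM in WT, and at 1.76, 5.31 and 31.4 CPM in L122A. In EGFP most of the difference was already present without LIF, where the library exceeded the WT and L122A libraries with RA. The log2 fold change from LIF to RA was 4.34 (SE 0.45, adjusted p = 0.000438). Sema3a, the archetypal axon repellent and a ligand of neuropilin 1, was at 0.602, 0.572 and 16.4 CPM in EGFP, at 0.492, 1.06 and 5.00 CPM in WT, and at 0.677, 1.92 and 2.02 CPM in L122A. The RA libraries were the 3 highest, but in L122A the library without LIF was at nearly the same level. On the log2 scale Sema3a rose by 3.55 (SE 0.84, adjusted p = 0.00948).

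Sema3e, which signals through plexin D1, was at 30.4, 89.6 and 45.5 CPM in EGFP, at 2.36, 11.1 and 18.9 CPM in WT, and at 4.38, 12 and 34.5 CPM in L122A. Its highest library was EGFP without LIF, and the RA and LIF groups overlapped, since the WT RA library was below the EGFP LIF library. The log2 fold change from LIF to RA was 2.28 (SE 0.50, adjusted p = 0.00734). Sema3d, a low-level class 3 ligand, was at 0.368, 1.68 and 9.67 CPM in EGFP, at 0.197, 0.0408 and 1.47 CPM in WT, and at 0, 0.304 and 0.617 CPM in L122A, where 3 counts in the LIF library would be 0.135 CPM. Only the EGFP library with RA stood far from the rest, and its rise of 4.03 on the log2 scale (SE 0.95, adjusted p = 0.00885) could not be tested without that library, the EGFP no-LIF library or the WT RA library, because Sema3d then fell under the filter.

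Among the membrane semaphorins, Sema6a, Sema6d, Sema6c, Sema4c and Sema4g rose and Sema5b fell. Sema6a, a ligand of plexins A2 and A4, was at 12.8, 58.5 and 26.0 CPM in EGFP, at 0.738, 8.53 and 21.9 CPM in WT, and at 0.677, 1.27 and 11.1 CPM in L122A. In EGFP the library without LIF was the highest, whereas in WT and L122A the RA library was. The log2 fold change from LIF to RA was 3.46 (SE 0.83, adjusted p = 0.0107), and the call ended without the WT LIF, WT RA or L122A RA library. Sema6d, a ligand of plexin A1, rose from at most 0.635 CPM with LIF to 6.75, 3.63 and 1.93 CPM with RA in EGFP, WT and L122A (log2 fold change 3.48, SE 1.04, adjusted p = 0.0244). Sema5b, a membrane semaphorin with thrombospondin repeats, was at 3.21, 0.648 and 0.0933 CPM in EGFP, at 10.1, 4.41 and 0.907 CPM in WT, and at 6.05, 4.71 and 1.23 CPM in L122A. Each transfectant fell in order from LIF to RA, although the EGFP library without LIF was below the WT and L122A libraries with RA. The log2 fold change was -3.49 (SE 0.55, adjusted p = 0.00165).

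Further calls among membrane semaphorins ended when single libraries were left out: Sema6d without EGFP LIF or WT LIF, Sema6c without the LIF or RA library of WT or of L122A, and Sema4g without EGFP RA, WT LIF, WT RA or L122A LIF. Sema6d was not tested without any 1 of the RA libraries, since it then fell under the filter. The Plxnb1 call ended without WT LIF, L122A LIF or L122A RA. Of the 23 calls, 13 held in all 17 alternatives: Efnb1, Efnb2, Efna5, Epha7, Ephb2, Sema3a, Sema3c, Sema4c, Sema5b, Plxna1, Plxna2, Plxnb2 and Nrp1. Among them, Efnb1, Sema3a, Sema4c and Nrp1 passed the filter only with the RA libraries. The number of members called fell to 15 without the WT LIF library, where the share of all genes called fell too, from 48.2% to 32.3%. It also fell to 15 without the WT RA library, with 29.8% of all genes called.

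The 2 smallest p-values of this comparison belonged to Plxna2 and Nrp1. Nrp1, the co-receptor of class 3 semaphorins and of VEGF, was at 1.74, 1.72 and 132 CPM in EGFP, at 0.640, 0.163 and 31.4 CPM in WT, and at 0.361, 0.354 and 25.2 CPM in L122A. No library without RA exceeded 1.74 CPM and none with RA was below 25.2 CPM. The log2 fold change was 6.02 (SE 0.35, adjusted p = 9.66e-05). Plxna2, a receptor of Sema6a and, with neuropilins, of class 3 semaphorins, was at 2.78, 2.63 and 54.1 CPM in EGFP, at 4.38, 5.10 and 105 CPM in WT, and at 2.93, 2.99 and 49.5 CPM in L122A. The 6 libraries without RA lay between 2.63 and 5.10 CPM, and the change was 4.32 (SE 0.21, adjusted p = 6.36e-05). Plxna2 is at 196446022 to 196643063 on chromosome 1 and Nrp1 at 130883147 to 131027247 on chromosome 8, both on the plus strand of mm9.

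Plxna1, the A-type plexin with the highest FPKM, was at 13.7, 12.4 and 42.7 CPM in EGFP, at 7.92, 14.3 and 23.4 CPM in WT, and at 9.74, 12.8 and 28.1 CPM in L122A. Plxnb2, a B-type plexin that binds class 4 semaphorins, was at 9.26, 16.1 and 48.4 CPM in EGFP, at 9.64, 10.04 and 26.0 CPM in WT, and at 13.1, 7.59 and 26.4 CPM in L122A. In both genes all RA libraries were above all others, with rises on the log2 scale of 1.58 (SE 0.25, adjusted p = 0.00175) for Plxna1 and 1.56 (SE 0.31, adjusted p = 0.00445) for Plxnb2. Plxna3 stayed between 2.86 and 5.18 CPM in the 9 libraries, and its log2 fold change was -0.39 (SE 0.32, adjusted p = 0.332).

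**Figure D2:**
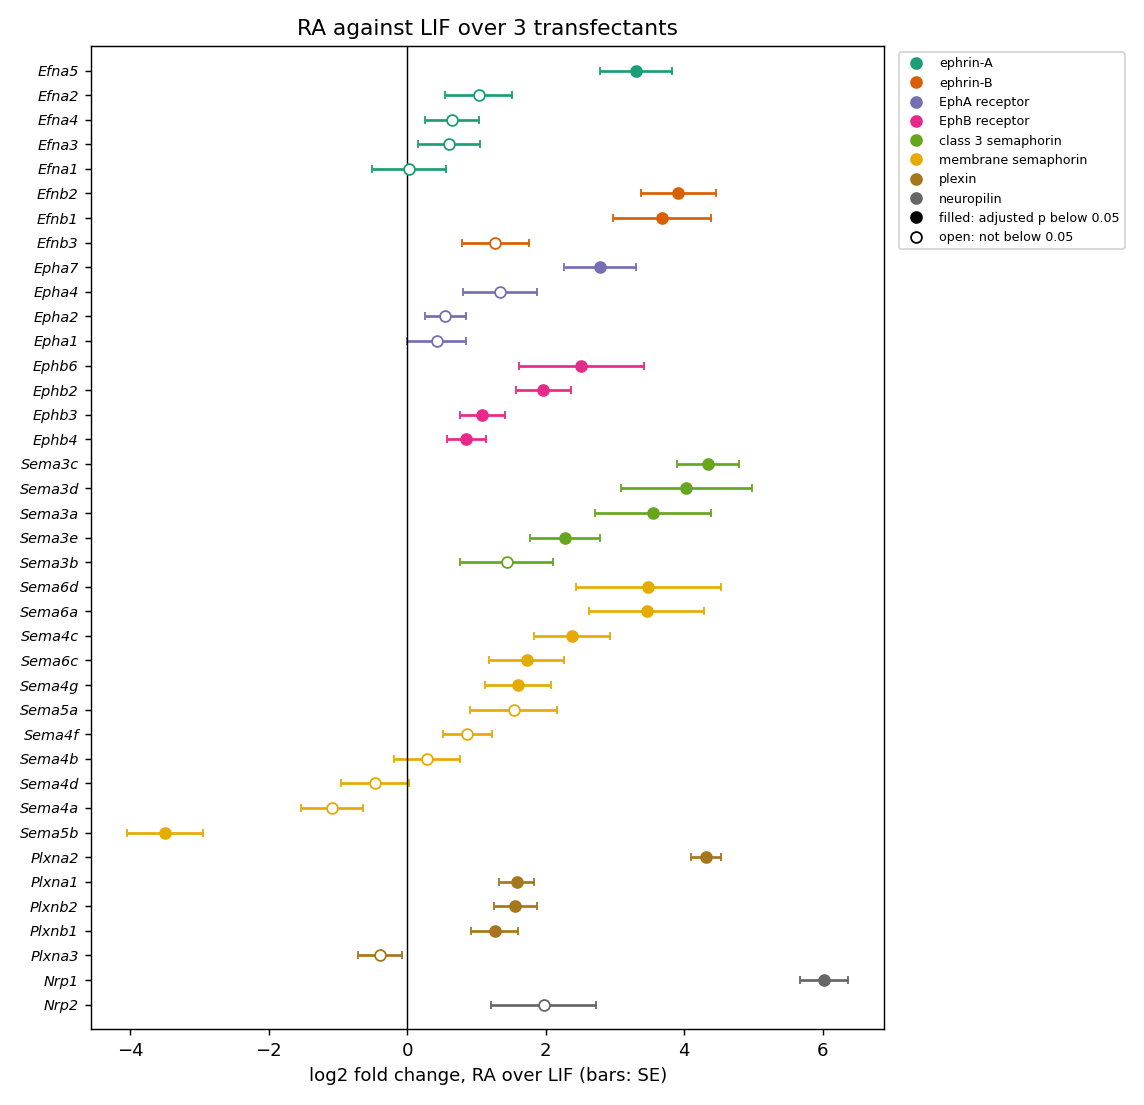
Log2 fold change from LIF to RA (horizontal axis) for the 39 members tested, grouped by family, with bars of 1 SE from the additive fit over 9 libraries. Filled points passed an adjusted p below 0.05; Nrp1 is farthest right at 6.02 and Sema5b farthest left at -3.49.

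Within each transfectant the RA library was also set against the LIF library, without a test, counting members at least 2-fold apart among those with 5 CPM in either. In EGFP 18 of 26 such members were higher with RA and 1 lower (40.4% of all eligible genes differed, 23.8% higher and 16.6% lower). In WT 19 of 27 were higher and 1 lower (47.3%, 24.8% higher and 22.5% lower), and in L122A 17 of 24 higher and 1 lower (37.9%, 20.7% higher and 17.3% lower). The lower member was Sema4d in EGFP and Sema5b in WT and L122A.

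The RA libraries differed among themselves in the level of the genes that rose. Of the 22 members called higher, the highest of the 3 RA libraries was EGFP for 13, WT for 8 and L122A for 1, and the lowest was L122A for 13, EGFP for 5 and WT for 4. This order was not counted over all genes called higher, so nothing particular to the members can be read from it. Markers of cell state also differed among the libraries with RA. Pou5f1, the stem cell factor Oct4, was at 195 to 453 CPM in the 6 libraries without RA and at 0.467, 9.22 and 70.0 CPM in the EGFP, WT and L122A libraries with RA. All 6 embryonic stem cell markers fell with RA, and their summed CPM there was 12.9, 99.8 and 425. The 6 RA response markers all rose and summed to 366, 919 and 922 CPM. In bulk RNA, fewer cells of a type and less RNA per cell cannot be told apart.

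Other cell types that express these guidance genes were read from marker lists in the same RA libraries, again as EGFP, WT and L122A. Fibroblast markers summed to 375, 42.2 and 13.8 CPM against 6.69 to 26.5 CPM in the 6 others, and 3 of the 4 tested rose, while Lum was at 0 in 8 of the 9 libraries. In L122A the sum was 15.7 CPM with LIF, above that with RA. The fourth marker tested, Thy1, was at 1.37, 4.08 and 11.6 CPM with LIF and at 1.96, 0.188 and 0.421 CPM with RA. All 6 extraembryonic endoderm markers rose over the 3 transfectants, with sums of 109, 350 and 123 CPM, against 6.02 to 44.7 CPM in the 6 others. Lama1 supplied 20.5, 209 and 67.4 CPM of the sums with RA, and in EGFP it was higher with LIF, at 24.0 CPM. Neural markers summed to 213, 69.7 and 51.2 CPM, against 27.3 to 85.3 CPM in the 6 others. Of the 3 tested only Nes, an intermediate filament gene of progenitor cells, rose, and it supplied 186, 54.5 and 38.2 CPM of those sums. Tubb3 and Pax6 did not pass (log2 fold changes -2.11 and -0.73), and Sox1 did not exceed 0.168 CPM in any library. Dcx was not tested. Its level with RA was 5.57, 5.85 and 0.449 CPM, against at most 0.163 CPM in the 6 others. Mesoderm markers summed to 10.8, 45.2 and 119 CPM with RA, and 2 of 3 tested rose. Their sums were 11.5, 3.05 and 3.38 CPM with LIF and 111, 2.28 and 2.02 CPM without LIF. Meox1 supplied 2.43, 38.4 and 111 CPM of the sums with RA. The markers T, Mesp1 and Tbx6 were not tested and did not exceed 0.196, 0.224 and 0.224 CPM with RA. Of the 6 endothelial markers 2 were tested, of which Pecam1 fell and Tek did not pass. Of the 4 not tested, Cdh5 was at 0.0334, 0.246 and 0.812 CPM with LIF and at 0.0311, 1.88 and 1.88 CPM with RA in EGFP, WT and L122A. Esam was at 0.936, 0.148 and 0.135 CPM with LIF and at 1.65, 0.782 and 0.505 CPM with RA, while Tie1 and Emcn did not exceed 0.708 and 0.467 CPM in any library. The part of these cell types in the changes of the guidance genes was not tested.

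**Figure D3:**
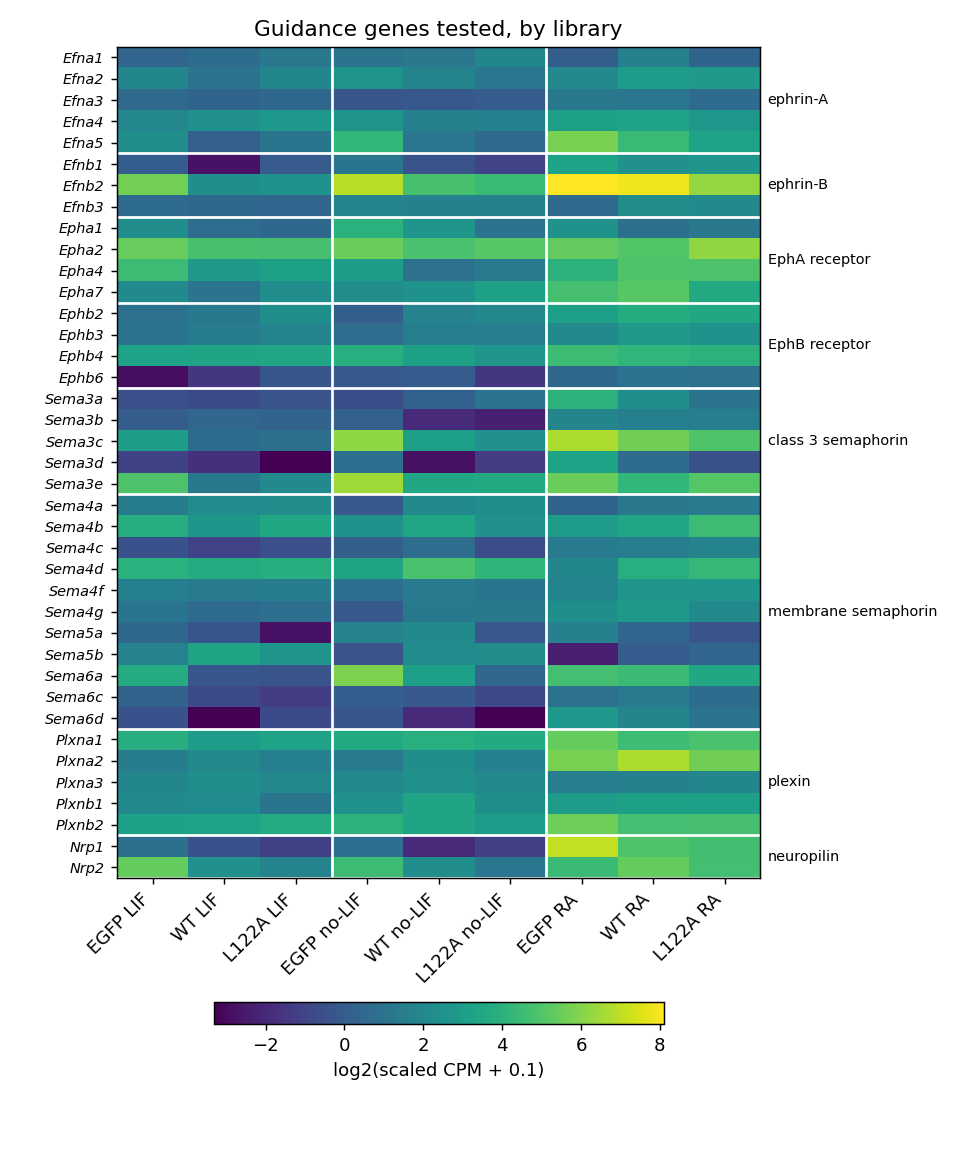
Log2 of scaled CPM plus 0.1 (colour) for the 39 members tested (rows, by family) in the 9 libraries (columns, by culture). Colours are read along a row: Nrp1 runs from 0.163 CPM in WT without LIF to 132 CPM in EGFP with RA, and Sema5b from 10.1 CPM in WT with LIF to 0.0933 CPM in EGFP with RA.

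The comparison of RA with culture without LIF shares its RA libraries with the one above and asks what RA added to the withdrawal of LIF. Of the 39 members, 24 were called, 23 higher and 1 lower, where 44.5% of all genes were called, 22.6% higher and 21.9% lower. Of those called higher, Efna3, Efnb1, Nrp1, Sema3a, Sema3d, Sema6c and Sema6d passed the filter only with the RA libraries. Total-count scaling moved the median of all genes to 0.43 and gave 24 members higher and 1 lower, beside 31.8% of all genes higher and 12% lower. Nrp1 rose by 6.49 (SE 0.36, adjusted p = 8.46e-05) and Plxna2 by 4.26 (SE 0.21, adjusted p = 6.9e-05) on the log2 scale, close to their values against LIF. Members higher without LIF than with LIF in all 3 transfectants had smaller values here than against LIF, 2.2 for Efnb2 (SE 0.50, adjusted p = 0.00929) and 1.85 for Sema3c (SE 0.41, adjusted p = 0.00788). Ephb6, Plxnb1, Sema3e, Sema4c and Sema6a, called higher against LIF, were not called against culture without LIF. Efna3, Efna4, Epha4, Nrp2, Sema3b and Sema4f were called here and not against LIF, and the difference between the 2 comparisons is that between LIF and no LIF. Epha4 rose by 2.99 (SE 0.58, adjusted p = 0.00456).

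Further members with large values were Sema6d (4.08), Sema3b (3.10), Efnb1 (2.94), Nrp2 (2.61), Sema3a (2.48), Efna5 (2.44), Sema3d (2.43), Ephb2 (2.2) and Epha7 (1.94). Sema3b, a low-level class 3 ligand, was at 0.101 to 1.28 CPM in the 6 libraries without RA and at 3.61, 2.97 and 2.83 CPM in the EGFP, WT and L122A libraries with RA. These groups did not overlap, and Sema3b had an SE of 0.74 and an adjusted p of 0.0105. Sema5b fell by 2.15 (SE 0.52, adjusted p = 0.0112). The count was 10 without WT RA and 15 without WT no-LIF, where the share of all genes called also fell, from 44.5% to 25.6% and 35.7%. Nrp1, Epha4, Plxna2, Ephb2, Plxna1, Plxnb2 and Sema3b, 7 members, were called in all 17 alternatives. Among them, Nrp1 passed the filter only with the RA libraries. Without WT RA, the calls of Efnb1, Epha7, Ephb3, Ephb4, Efna3, Efna4, Nrp2, Sema3a, Sema4f, Sema4g, Sema5b and Sema6c ended. With Efna5, Efnb2 and Sema3c, 10 members kept the call whichever library was left out. Epha7 also lost it without EGFP no-LIF or WT no-LIF, Sema5b without L122A no-LIF, Sema6d without WT no-LIF, and Nrp2 without EGFP LIF, WT no-LIF, L122A no-LIF or L122A RA. Sema3d lost it without WT no-LIF or L122A RA, and Sema3a without any library but L122A no-LIF and L122A RA. Efna3 lost it whichever library was left out, and Sema6c without any library but EGFP RA. Efna4 also lost it without EGFP RA, WT LIF, WT no-LIF, L122A no-LIF or L122A RA. Sema4f also lost it without EGFP no-LIF, L122A no-LIF or L122A RA, and Ephb4 without WT no-LIF, L122A no-LIF or L122A RA. Ephb3 also lost it without L122A no-LIF, and Sema4g without EGFP no-LIF or WT no-LIF. As against LIF, Sema3d and Sema6d fell under the filter without 3 libraries each and were not tested there.

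Withdrawal of LIF without RA was compared next. No member was called by edgeR, where 0.0714% of all genes were (0.0143% higher, 0.0572% lower), with 10 members of the 39 at an unadjusted p below 0.05 beside 8.73% of all genes. DESeq2 called 4 (Efnb2, Sema3c, Sema3e and Sema6a, all higher) beside 1.99% of all genes, and limma called 0. The smallest p belonged to Sema3c, at 2.5 on the log2 scale (SE 0.43, adjusted p = 0.13), followed by Sema3e at 1.71 (SE 0.48, adjusted p = 0.347) and Epha1, a receptor of epithelial cells, at 1.49 (SE 0.43, adjusted p = 0.348). A fit on only the LIF and no-LIF libraries called 4 members, Efnb2, Sema3c and Sema3e higher and Epha4 lower, and 0.658% of all genes. Without the EGFP RA library 3 were called, namely Sema3c and Sema3e higher and Epha4 lower, and 0.315% of all genes.

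Read library by library, without a test, the direction was shared for several ligands. The ratio of the library without LIF to that with LIF for Sema3c was 8.68 in EGFP (95% exact Poisson interval 7.60 to 9.97, counting error only), 5.75 in WT (3.93 to 8.67) and 3.02 in L122A (2.07 to 4.48). For Efnb2 it was 2.29 in EGFP (2.16 to 2.44), 5.45 in WT (4.42 to 6.78) and 3.72 in L122A (3.03 to 4.57). For Sema3e it was 2.95 (2.73 to 3.19), 4.72 (3.46 to 6.55) and 2.74 (2.16 to 3.51) in the same order. Epha4 went the other way, with the LIF library higher by 2.77-fold in EGFP (2.37 to 3.25), 3.73-fold in WT (2.64 to 5.34) and 3.41-fold in L122A (2.5 to 4.72). Members that reached 5 CPM in either library were eligible for a 2-fold limit. In EGFP 6 of 17 were higher without LIF and 2 lower, where 13.9% of all eligible genes differed (7.51% higher, 6.38% lower). In WT 8 of 19 were higher and 2 lower (10.3% of all, 5.66% higher and 4.59% lower), and in L122A 4 of 16 were higher and 3 lower (6.09% of all, 2.94% higher and 3.16% lower). Sema6a was 4.58-fold higher without LIF in EGFP and 11.6-fold in WT, while in L122A its ratio of 1.87 had an interval of 0.948 to 3.81. The mesoderm marker T, brachyury, was at 105 CPM in the EGFP library without LIF and at most 6.72 CPM in the other 8, and its part in the values of that library was not tested.

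**Figure D4:**
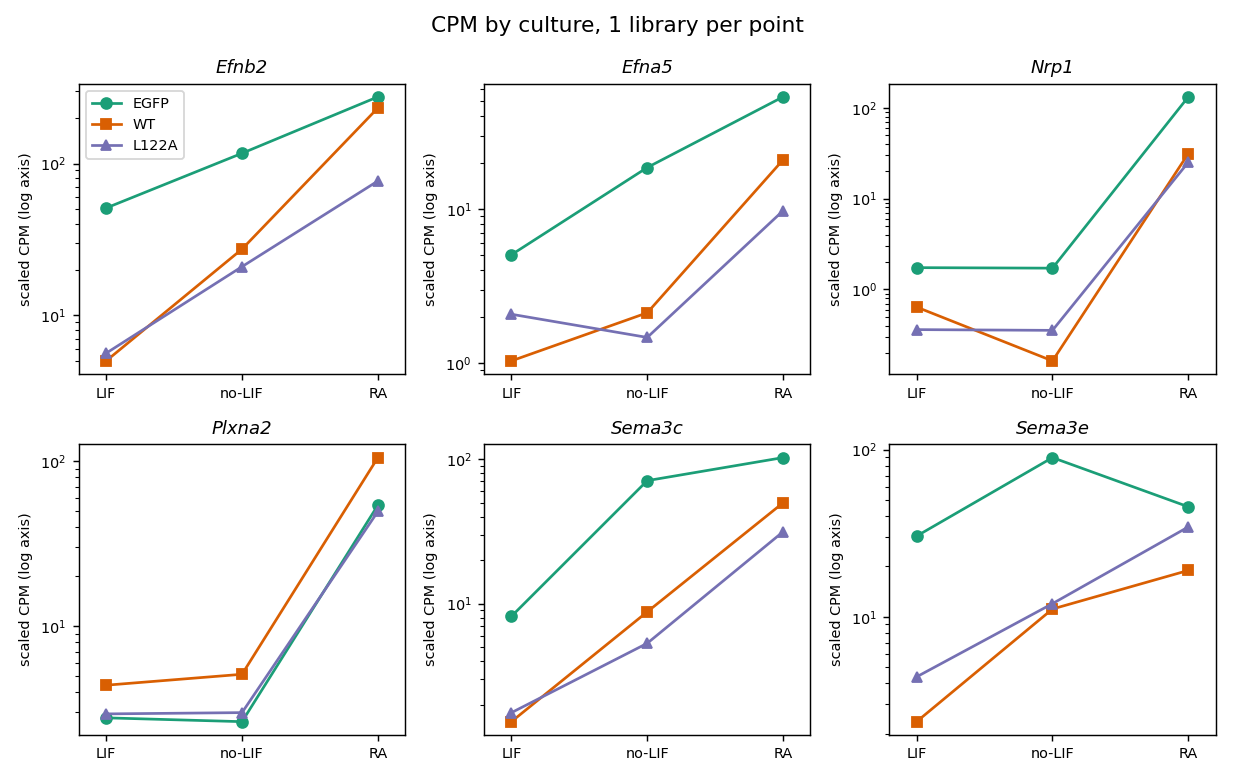
Scaled CPM (log axis) of Efnb2, Efna5, Nrp1, Plxna2, Sema3c and Sema3e by culture, with 1 line per transfectant and 1 library per point, so no error is drawn. The EGFP line lies above both Nanog lines in every culture for the ligands and Nrp1, and Plxna2 is highest in WT with RA at 105 CPM.

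The transfectants were then compared over the 3 cultures. Nanog itself was at 384, 290 and 0.871 CPM in EGFP, at 222, 168 and 195 CPM in WT, and at 239, 130 and 258 CPM in L122A, so the EGFP library stood above both Nanog transfectants with LIF and without LIF, opposite to the direction the labels imply, and below them only with RA. The counts do not separate the construct from the resident gene, so total Nanog does not check the labels in the cultures without RA. In WT against EGFP 1 member was called, where 0.322% of all genes were (0.0357% higher, 0.286% lower). It was Nrp1, with a log2 fold change of -2.13, lower in WT (SE 0.32, adjusted p = 0.0451). The next 2 members by p were Sema3e at -2.77 (SE 0.50, adjusted p = 0.0727) and Sema3c at -2.19 (SE 0.42, adjusted p = 0.0823). DESeq2 called 10 members, 8 lower and 2 higher (Plxna2 and Sema5b), and 4.39% of all genes. The Nrp1 call held only when EGFP LIF or L122A RA was left out and ended without any of the other 7 libraries. Without EGFP RA 6 other members were called lower, namely Efnb2, Epha4, Nrp2, Sema3c, Sema3e and Sema6a, with 1.05% of all genes called.

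In L122A against EGFP 4 members fell, where 2.88% of all genes were called, 0.893% higher and 1.99% lower. On the log2 scale these were Sema3c at -2.63 (SE 0.43, adjusted p = 0.0229), Efnb2 at -2.61 (SE 0.50, adjusted p = 0.0392), Efna5 at -2.47 (SE 0.51, adjusted p = 0.044) and Nrp1 at -2.34 (SE 0.33, adjusted p = 0.014). All 4 were lower in L122A than in EGFP in each of the 3 cultures. Both comparisons share the EGFP libraries and are given side by side only. DESeq2 called 12 members, 10 lower and 2 higher (Ephb2 and Sema5b), and 10.3% of all genes. Without L122A no-LIF or without L122A RA the number was 0 (0.173% and 0.957% of all genes called), and without EGFP RA it was 8 (3.78%). It was 2 without EGFP no-LIF, without WT LIF and without WT no-LIF, where 0.816%, 1% and 1.58% of all genes were called, and the Efnb2 call also ended without EGFP LIF or L122A LIF. Of the fibroblast markers, 3 of 4 tested fell in L122A against EGFP and 1 of 4 in WT against EGFP. Of the 3 neural markers tested, 1 fell in L122A against EGFP and 0 in WT against EGFP. The part of either cell type was not tested.

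Within single cultures the same direction was visible, again without a test. With LIF, 7 of 15 eligible members were at least 2-fold lower in both Nanog transfectants than in EGFP and 0 were higher, where 5.34% of all eligible genes differed (3.26% lower, 2.08% higher). These were Efna5, Efnb2, Epha4, Nrp2, Sema3c, Sema3e and Sema6a. The EGFP library was higher for Efnb2 by 10.2-fold over WT (8.31 to 12.5) and 9.04-fold over L122A (7.53 to 10.9). For Sema6a the ratios were 17.3 (10.4 to 31.2) and 18.9 (11.3 to 34.1). Nrp2, the neuropilin that binds Sema3f and Sema3c, was 7.75-fold (6.38 to 9.5) and 12.7-fold (10.03 to 16.3) higher in EGFP.

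Without LIF, the same 7 genes and Epha1 were lower in both Nanog transfectants, 8 of 18 eligible, and 0 were higher (11.7% of all eligible genes differed, 6.6% lower and 5.07% higher). With a minimum of 1 CPM in place of 5 CPM, 12 of 35 were lower and 4 higher (Ephb2, Sema4a, Sema4g and Sema5b), and the share of all genes was not counted there. Sema3c was 8.08-fold (7.01 to 9.35) and 13.3-fold (11 to 16.4) higher in EGFP than in WT and L122A. The largest ratio was that of Sema6a in EGFP over L122A, 46.2-fold (31.2 to 71.6), against 6.86-fold (5.93 to 7.96) over WT. With RA, 7 of 29 eligible members were lower in both and 1 was higher (9.24% of all eligible genes differed, 6.35% lower and 2.89% higher). The lower ones were Efna5, Epha1, Epha3, Nrp1, Sema3a, Sema3c and Sema3d, so Nrp2, Epha4, Efnb2, Sema3e and Sema6a no longer met the limit. Nrp1 was 4.22-fold (3.93 to 4.52) and 5.25-fold (4.88 to 5.65) higher in EGFP than in WT and L122A. Sema3d was 6.58-fold (4.83 to 9.15) and 15.7-fold (10.2 to 25.4) higher in EGFP. The EGFP RA library, in which these genes are high, also had the highest fibroblast and neural marker sums, 375 and 213 CPM. Neither link was tested.

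A difference in the culture responses of the Nanog transfectants and of EGFP was tested with WT and L122A as 2 libraries of a class. No member was called by edgeR for RA against LIF, RA against no LIF or no LIF against LIF, where 0.00714%, 0.0429% (0.0357% higher, 0.00714% lower) and 0% of all genes were called. At an unadjusted p below 0.05 there were 8, 7 and 7 members of the 39, beside 11.1%, 9.22% and 7.98% of all genes. DESeq2 called 4 for RA against LIF (Epha4, Nrp2, Sema3e and Sema4d), 2 for RA against no LIF (Epha4 and Nrp2) and 0 for no LIF against LIF, beside 1.89%, 1.79% and 0.857% of all genes, and limma called 0 in each. With no filter on low counts the numbers were 6, 7 and 0 (2.64%, 2.45% and 1.55% of all genes). For RA against LIF 2 members were called without WT RA and 1 without L122A RA (1.27% and 0.256% of all genes).

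The 3 smallest p-values for RA against LIF belonged to Nrp2, Epha4 and Sema4d. Nrp2 was at 42.3, 22.8 and 22.3 CPM in EGFP, at 5.46, 4.77 and 42.3 CPM in WT, and at 3.34, 2.13 and 25.6 CPM in L122A. From LIF to RA it was lower in EGFP and higher in both Nanog transfectants, and the difference of the log2 responses was 3.87 (SE 0.77, adjusted p = 0.205). Epha4, a receptor that binds ephrins of both classes, was at 22.4, 8.08 and 16.3 CPM in EGFP, at 6.84, 1.84 and 30.7 CPM in WT, and at 8.98, 2.63 and 29.7 CPM in L122A. Every transfectant had its lowest value without LIF, and with RA the order of EGFP against the Nanog transfectants was turned (difference 2.39, SE 0.51, adjusted p = 0.227). Sema4d, the ligand of plexin B1, was at 15.8, 10.03 and 3.70 CPM in EGFP, at 12.8, 28.1 and 14.5 CPM in WT, and at 13.8, 17.6 and 19.1 CPM in L122A. The 3 transfectants were close with LIF and the EGFP library was lowest with RA (difference 2.44, SE 0.55, adjusted p = 0.229). With RA, Sema4d was 3.93-fold higher in WT (3.21 to 4.85) and 5.17-fold higher in L122A (4.25 to 6.34) than in EGFP. It was the single member at least 2-fold higher in both at the minimum of 5 CPM. Efnb3 was also 2-fold higher in both at a minimum of 1 CPM, and Efnb3 and Epha4 were with total counts.

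**Figure D5:**
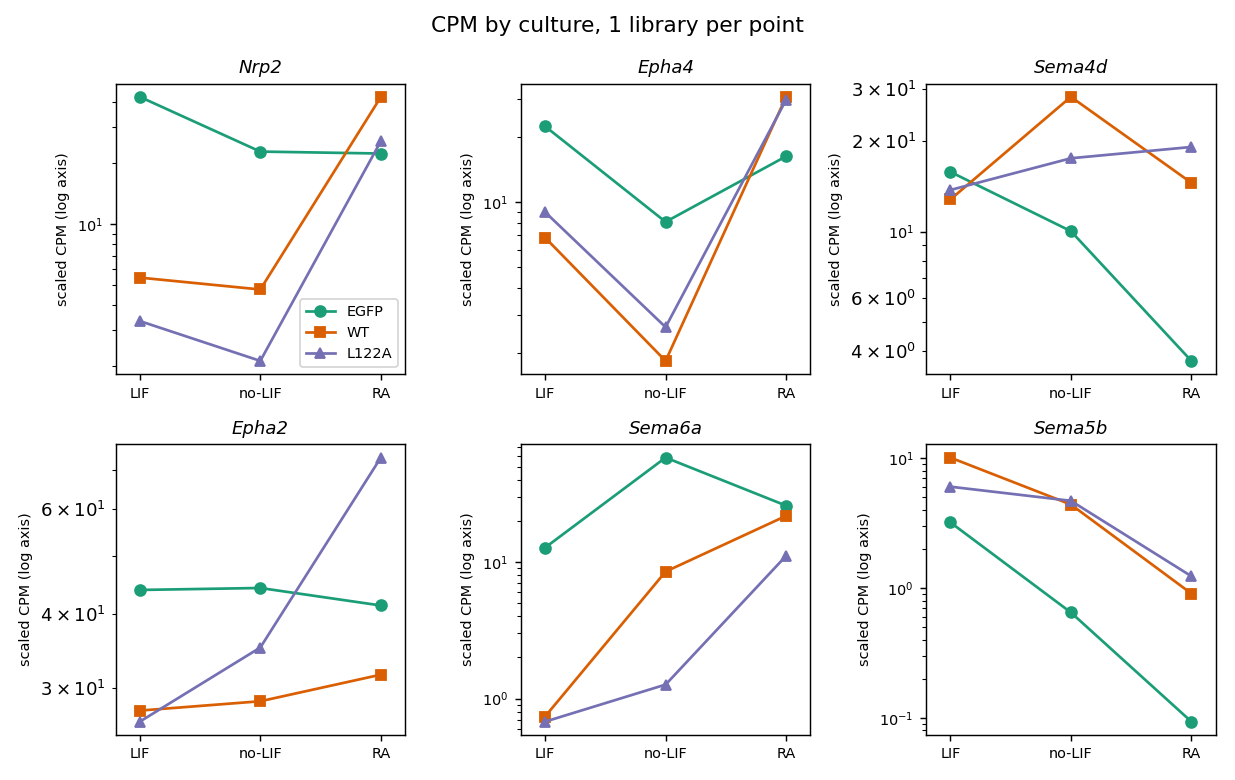
Scaled CPM (log axis, range differs by panel) of Nrp2, Epha4, Sema4d, Epha2, Sema6a and Sema5b by culture, 1 library per point. Nrp2 falls from 42.3 to 22.3 CPM from LIF to RA in EGFP and goes from 5.46 to 42.3 CPM in WT, and Epha2 is highest in L122A with RA at 73.3 CPM.

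The L122A mutant was compared with wild-type Nanog directly. No member was called by edgeR, and neither was any gene (0% of all), with 2 members at an unadjusted p below 0.05 (4.39% of all genes) and 0 called by DESeq2 (0.364% of all genes) and by limma. The 3 smallest p-values were, with log2 fold changes, those of Plxna2 at -0.83 (SE 0.20, adjusted p = 0.732), Sema5a at -2.03 (SE 0.64, adjusted p = 0.923) and Plxnb1 at -0.71 (SE 0.34, adjusted p = 0.999). Read by culture at the 2-fold limit, 1 of 13 eligible members differed with LIF (Ephb2, higher in L122A, where 3.66% of all eligible genes differed, 1.85% higher and 1.81% lower). Without LIF 3 of 16 were lower in L122A (Epha1, Plxnb1 and Sema6a, where 8.14% of all differed, 4.22% lower and 3.93% higher). With RA 2 of 25 were higher and 5 lower (7.33% of all differed, 3.46% higher and 3.87% lower).

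In RA the members higher in L122A were Epha2, 2.32-fold (2.16 to 2.5), and Sema4b, 2.13-fold (1.87 to 2.42). Those higher in WT were Efnb2, 3.03-fold (2.90 to 3.16), Epha7, 2.88-fold (2.58 to 3.23), Sema3a, 2.48-fold (1.87 to 3.32), Efna5, 2.14-fold (1.88 to 2.44), and Plxna2, 2.12-fold (2.00 to 2.25). Nrp1 differed by less, 1.25-fold (1.14 to 1.36) higher in WT. Pou5f1 was at 9.22 CPM in this WT library and at 70.0 CPM in L122A, and its part in these ratios was not tested.

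Genes that work with these families were read from 3 lists. From LIF to RA, 10 of 12 tested genes of netrin, Slit and RGM guidance rose and 0 fell, 8 of 12 genes of Eph signalling rose and 1 fell, and 11 of 23 genes of semaphorin and plexin signalling rose and 1 fell, beside 24.5% higher and 23.8% lower among all genes. The 2 largest rises in each of the first 2 lists were those of the netrin receptors Unc5c (log2 fold change 7.42, SE 1.0) and Unc5b (4.33, SE 0.50), of Adam10, a protease that cleaves ephrins (2.40, SE 0.34), and of the adaptor Nck2 (1.95, SE 0.26). In the semaphorin list the 2 largest were those of Farp1, an exchange factor downstream of plexins (3.18, SE 0.41), and of Dpysl3, of the CRMP family (2.91, SE 0.35). The adaptor Grb7 (-1.94, SE 0.55) and the adhesion molecule L1cam (-2.63, SE 0.74) fell. Against culture without LIF 7, 6 and 12 genes of the 3 lists rose and 0, 1 and 2 fell, the last being L1cam (-3.22) and Dpysl5 (-1.89). In L122A against EGFP 3 netrin and Slit genes fell (Unc5c at -4.92, Slit2 at -3.30 and Unc5b at -2.57), as did Met (-2.07) and Itgb1 (-1.28), and no gene of the 3 lists was called in WT against EGFP or L122A against WT.

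Of the 53 members, 15 overlap another gene in the annotation of the count table, 13 of them on the opposite strand. How the counting treated strand is not given in the sources used. Overlap was taken over whole gene spans, introns included, and overlap of exons was not examined. So it is not known whether reads of Epha7, Ephb4, Efna3, Efna5, Sema3e, Sema5b, Sema6d, Plxna1 and Plxnb1 mix with those of an opposite gene. Nrp1 contains a miRNA gene on its own strand.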

How the data were processed

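RNA from 9 cultures was sequenced, and the submitters' processing notes name TopHat2 2.0.11 and mm9; the counter, its treatment of strand and read filters are not given in the sources used. Raw counts per gene were deposited by the authors without normalization, per the file headers. FPKM values were deposited too, and above 5 FPKM 100% of genes equal count over length and total count within 1%. Column names outside the labels were assigned to the LIF culture by elimination, and L122 was read as L122A.

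Members were taken by name; members, lists and tests were chosen with earlier results of these data known. Named with values are members that passed with a mean of at least 5 CPM, the 12 with the largest change in RA against LIF, the 2 of highest FPKM per family and, where fewer than 3 passed, the 3 of smallest p. Genes with at least 1 CPM in 3 libraries (13996 of 33495) were tested in edgeR 4.0.16 (R 4.3.3) with TMM factors of 0.810 to 1.255, in an additive quasi-likelihood model of transfectant and culture over all 9 libraries (4 residual degrees of freedom; the biological coefficient of variation was 0.325). Calls required an adjusted p below 0.05 (Benjamini-Hochberg over all genes). The SE was taken as the size of the log2 change divided by √F. The spread is departure from additivity, not replicate error. Differences of responses used Nanog class by culture (3 residual degrees of freedom). Single libraries were compared as CPM ratios with exact 95% intervals. The scripts were tested on simulated data. Alternatives were RLE factors, total counts, no filter, DESeq2 1.42.0, limma 3.58.1 on log2(FPKM + 1) and log2(FPKM + 0.1), smaller designs and each library left out.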

Additional observations from a re-analysis of the deposited data

How the results depend on the processing

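With 1 library per combination nothing measures the spread between cultures of the same kind, so a call rests on a difference that repeats over transfectants or cultures. Depth limits the members under 1 CPM. Directions of the called members were the same under every alternative run; counts changed as follows. DESeq2 called 4 members without LIF against LIF, 10 in WT against EGFP, 12 in L122A against EGFP, 4 for the difference of the RA against LIF response and 2 for that of the RA against no-LIF response. With no filter those 2 differences gave 6 and 7. In WT against EGFP the 1 call became 0 with total counts (0.157% of all genes called) and with no culture term (0%). It also became 0 with limma on log2(FPKM + 1) (0.136%) and on log2(FPKM + 0.1) (0.372%). In L122A against EGFP the 4 calls became 2 with total counts, 2 with limma on log2(FPKM + 1), 2 with only the groups compared and 0 with no culture term. The shares of all genes called in these fits were 1.81%, 1.55%, 0.597% and 0%. Only the LIF and no-LIF libraries gave 4 calls between them.

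Leaving out 1 library gave 15 to 24 calls for RA against LIF, 10 to 21 for RA against no LIF, 0 to 3 for no LIF against LIF, 0 to 6 for WT against EGFP, 0 to 8 for L122A against EGFP and 0 to 0 for L122A against WT. The shares of all genes called moved too, 29.8% to 48.2% for RA against LIF and 25.6% to 45.5% for RA against no LIF. They were 0% to 0.315% for no LIF against LIF and 0% to 1.05% for WT against EGFP. For L122A against EGFP they were 0.173% to 4.08%, and for L122A against WT 0%. The difference of the RA against LIF response gave 0 to 2 and the other differences 0 to 0, and those could not be fitted without an EGFP library of the contrast. The cause of these changes was not tested. With a minimum of 1 CPM in place of 5 CPM, more low genes were eligible, and the share of all genes that differed was not counted. Members different at 2-fold were then 16 of 35 eligible for both Nanog transfectants against EGFP without LIF (12 lower, 4 higher). For L122A against WT they were 7 of 34 with LIF, 8 of 33 without LIF and 12 of 44 with RA. For no LIF against LIF they were 16 of 36 in EGFP, 18 of 36 in WT and 11 of 34 in L122A. For RA against LIF they were 31 of 44 in WT and 28 of 41 in L122A. With total counts L122A against WT with LIF gave 0. The additive fit already compares cultures within transfectants. A fit of only the 2 cultures compared, paired over the 3 transfectants, gave 22 calls for RA against LIF and 20 for RA against no LIF. The shares of all genes called in these 2 fits were 46.1% and 41.2%. No analysis paired by replicate number was run, since the labels carry none.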
